A study of Mus musculus with 20 samples.

Results

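Purine breakdown was followed through 9 genes in mouse liver: *Xdh*, *Uox*, *Urah*, *Allc*, *Ada*, *Pnp*, *Gda*, *Aox1* and *Aox3*. They were taken by gene symbol, and they are 9 of the 50559 genes in the count table. The set was chosen from earlier results of these data, in which *Xdh* was higher in *Cideb* KO than in WT livers on CDA-HFD. Values of that contrast are therefore given as a description, and its p-values are left out.

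The livers came from *Cideb* fl/fl mice, in which exon 2 of *Cideb* is flanked by loxP sites. *Cideb* encodes a protein of the lipid droplet surface that enlarges droplets. WT mice received AAV-TBG-GFP and KO mice AAV-TBG-Cre. The TBG promoter is active in hepatocytes, so other liver cells kept the gene. Both were fed Western diet (WD) or CDA-HFD, a fatty diet that lacks choline and supplies amino acids in place of protein, giving 4 groups of 5 livers. The labels give 3 months for each diet, whereas the study's text describes a longer WD feeding for hepatocyte KO mice, so diet, feeding time and age cannot be told apart. Nothing in the labels says whether livers of a group shared a litter or a day.

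Purines leave the body by a short series of enzymes. Adenosine deaminase (*Ada*) turns adenosine into inosine, purine nucleoside phosphorylase (*Pnp*) releases bases from nucleosides, and guanine deaminase (*Gda*) turns guanine into xanthine. Xanthine dehydrogenase (*Xdh*) oxidizes hypoxanthine and xanthine to urate. Urate oxidase (*Uox*), an enzyme humans lack, and the hydrolase encoded by *Urah* carry urate towards allantoin, and allantoicase (*Allc*) acts beyond it. The aldehyde oxidases *Aox1* and *Aox3* belong to the same molybdenum enzyme family as *Xdh* and oxidize aldehydes and nitrogen-containing rings. The liver is a main site of urate formation and, in mice, of its removal.

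Each library held 11697049 to 16827147 reads on genes. *Cideb*, the targeted gene, had 0 to 6 reads in KO livers and 35 to 100 reads in WT livers, which matched every label. Levels are counts scaled to a common library total (CPM) with the trimmed mean of M values (TMM). The threshold was an adjusted p (Benjamini-Hochberg) under 0.05 in edgeR's quasi-likelihood test over all genes, and log2 fold changes carry their standard error (SE). TMM matters for diet and for the KO contrast on CDA-HFD. With library size as the scale, the median log2 fold change of all genes between the diets moved in WT livers from -0.00 to 0.42. In KO livers it moved from 0.00 to 0.25, and between KO and WT livers on CDA-HFD from 0.00 to -0.19. The 10 hepatocyte markers, led by genes such as *Alb*, were read in every liver, with a summed level of 42095 to 130880 CPM. Liver 5 of the KO group on CDA-HFD stood apart from the other 4 in marker sums and is named where it moved a value.

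Per kilobase of exon, *Uox* was the most abundant of the genes in every group, at 374 CPM per kb in WT livers on WD. *Aox3* followed at 71.0, *Urah* at 58.0, *Xdh* at 37.2, *Aox1* at 21.1, *Gda* at 10.9, *Pnp* at 5.50 and *Ada* at 1.18 CPM per kb. The per-kilobase ranges of *Aox3* and *Urah* overlapped in that group, at 63.3 to 80.9 and 50.7 to 68.7. On CDA-HFD *Xdh* stood above *Urah* in both genotypes, with ranges per kb that overlapped, at 33.6 to 35.3 against 22.7 to 43.2 in WT livers. *Allc* had 1 read in WT liver 1 on WD and 0 in the other 19 livers, where 3 counts, the limit that a count of 0 allows, correspond to 0.143 to 0.298 CPM. It was not tested.

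*Xdh* (chromosome 17, 73883895 to 73950196, minus strand, GRCm38) separated the KO livers on CDA-HFD from the 15 others. On WD the 5 WT livers measured 321, 296, 362, 386 and 340 CPM, and the 5 KO livers 303, 293, 279, 317 and 343 CPM. On CDA-HFD the WT livers measured 320, 309, 324, 309 and 311 CPM. The KO livers on CDA-HFD measured 504, 504, 559, 544 and 533 CPM. The lowest of these lay above the highest of all others, 386 CPM, while the remaining 3 groups overlapped one another. Group means ± SD (n = 5) were 341 ± 35.0, 307 ± 24.6, 315 ± 7.05 and 529 ± 24.5 CPM in that order.

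**Figure D1:**
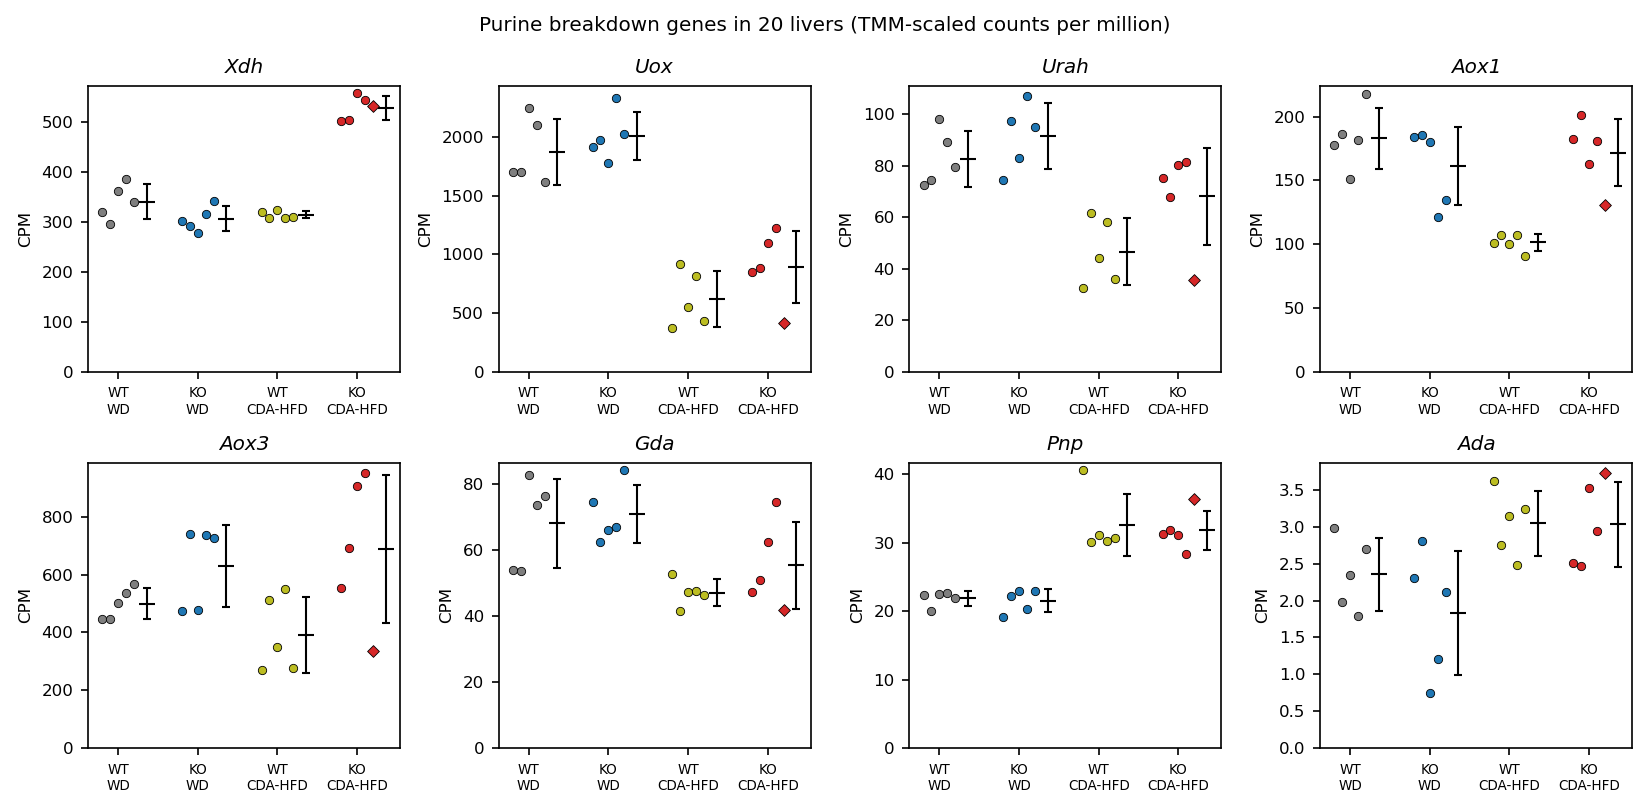
TMM-scaled CPM (y axis, from 0) of 8 genes in each of the 20 livers, by group, with the group mean and SD as the black bar at the right of each set of 5 points. The diamond is KO liver 5 on CDA-HFD, which sat with the other KO livers for *Xdh*, at 533 CPM, and below them for *Uox*, *Urah*, *Aox1*, *Aox3* and *Gda*.

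Between KO and WT livers on CDA-HFD, the contrast the set was chosen on, *Xdh* differed by 0.75 (SE 0.083) on the log2 scale. The aldehyde oxidases differed by as much, *Aox1* by 0.76 (SE 0.12) and *Aox3* by 0.81 (SE 0.30). *Urah* differed by 0.54 and *Uox* by 0.53, *Gda* by 0.23, *Ada* by -0.01 and *Pnp* by -0.04. *Xdh* and *Aox1* passed the threshold, 2 of the 8 tested, both higher, where 15.5% of 17204 genes passed and 8.19% passed as higher. The groups did not overlap for the same 2 genes, against 9.57% of all genes. Their use in choosing the set leaves nothing to read from these counts. With library size as the scale *Xdh* and *Aox1* were at 0.55 each, *Aox3* at 0.59, *Urah* at 0.34 and *Uox* at 0.32. *Gda* then stood at 0.00075, *Ada* at -0.21 and *Pnp* at -0.23, where the median of all genes was -0.19.

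In the edgeR fit above, the calls of *Aox3*, *Uox* and *Urah* turned on KO liver 5. It measured 335 CPM for *Aox3* against 554 to 952 in KO livers 1 to 4. For *Uox* it measured 415 against 849 to 1224 CPM, and for *Urah* 35.8 against 67.9 to 81.6 CPM. For all 3 genes this liver fell inside the span of the WT group on that diet. In the same liver the summed macrophage markers stood at 2057 CPM. KO livers 1 to 4 had 626 to 830 CPM, and the WT group on CDA-HFD had 1758 to 3647. Stellate cell markers stood at 3482 CPM against 1292 to 1395, cholangiocyte markers at 673 against 85.0 to 190, and hepatocyte markers at 46709 against 89436 to 130880 CPM. The part of this in the values of the purine genes was not tested, and in bulk tissue fewer cells of a type and less RNA per cell cannot be told apart. Without that liver, 5 of the 8 genes passed, *Aox3*, *Uox* and *Urah* being added, and *Xdh* differed by 0.74. How many of all genes passed without that liver was not counted, so nothing is read from the added calls. With every liver kept, DESeq2 also called *Aox3*, as did edgeR with a block for replicate number.

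On WD, deletion of *Cideb* moved none of the genes past the threshold. By edgeR 0 of 8 passed, where 12 of 15848 genes (0.0757%) did and 1702 had an unadjusted p under 0.05, and DESeq2 also called 0 of the 8. The largest differences were 0.34 (SE 0.15, adjusted p = 0.459 by edgeR) for *Aox3* and -0.36 (SE 0.31) for *Ada*, a gene with 8 to 38 reads in these livers. *Xdh* was at -0.15 (SE 0.094, adjusted p = 0.597 by edgeR), opposite in sign to its value on CDA-HFD. *Aox3* alone had an unadjusted p under 0.05, at 0.0473 by edgeR. KO livers on WD held 475, 738, 477, 735 and 727 CPM of *Aox3*, 3 of them above the 446 to 569 CPM of the WT livers. No gene of the set separated the groups, against 2.22% of all genes.

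The 2 KO effects were set against each other in an interaction term, which shares the chosen contrast and is a description. The effect on CDA-HFD exceeded that on WD by 0.90 (SE 0.12) for *Xdh* and 0.94 (SE 0.18) for *Aox1*. These 2 of 8 passed, where 99 of 17804 genes (0.556%) did. For *Aox1* the call was lost with library size as the scale, where the difference was 0.76, and when WT liver 4 or 5 on WD, WT liver 3 or 5 on CDA-HFD or KO liver 1 on CDA-HFD was left out. *Aox3*, at 0.48 (SE 0.35), *Uox*, at 0.44, and *Urah*, at 0.40, did not pass.

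*Uox* (chromosome 3, 146570426 to 146632305) and *Urah* (chromosome 7, 140835018 to 140837966), the urate-removing genes, were lower on CDA-HFD than on WD in WT livers. *Uox* measured 1702, 1700, 2246, 2100 and 1618 CPM on WD and 375, 914, 548, 818 and 432 CPM on CDA-HFD, a fall by 1.61 on the log2 scale (SE 0.24, adjusted p = 0.000265 by edgeR). *Urah* measured 72.4, 74.5, 98.1, 89.3 and 79.5 CPM on WD and 32.4, 61.6, 44.4, 58.3 and 36.2 CPM on CDA-HFD, a fall by 0.84 (SE 0.17, adjusted p = 0.00192 by edgeR). On the other strand *C330022C24Rik* shares 177 of the 1427 exonic bases of *Urah*, and reads of the 2 cannot be told apart if strand was not used. Diets did not overlap for either gene, and WT livers 1 and 5 on CDA-HFD were the lowest for both. The same 2 livers had the lowest hepatocyte marker sums of that group, 42095 and 56000 CPM. The median of these sums was 94935 CPM in WT livers on WD and 60690 on CDA-HFD, while stellate cell markers went from 1084 to 3297 and cholangiocyte markers from 75.1 to 602 CPM. Their part in the diet values of the purine genes was not tested. Both genes stayed lower with library size as the scale, at -1.21 and -0.43. These livers take part in the contrast the set was chosen on, so the diet values are not independent of it.

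The starts of *Uox* and *Urah* are shown because these neighbours in the pathway fell together. The sequences run from 250 bases before to 50 bases after a RefSeq transcript start (GRCm38.p6), both on the plus strand, with the first of 2 overlapping *Urah* starts, and *Aox1*, which fell with them in WT livers, is set beside them. Capitals mark CCAAT or its complement ATTGG, searched on both strands along with TATAAA and AGGTCA, a nuclear receptor motif. The *Uox* start shown lies inside the gene's full annotated span.
Uox: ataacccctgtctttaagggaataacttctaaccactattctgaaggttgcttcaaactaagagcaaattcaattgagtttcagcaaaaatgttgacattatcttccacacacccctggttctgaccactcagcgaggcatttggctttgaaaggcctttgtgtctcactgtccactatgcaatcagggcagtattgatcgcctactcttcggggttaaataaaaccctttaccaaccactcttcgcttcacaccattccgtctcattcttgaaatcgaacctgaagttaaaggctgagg
Urah: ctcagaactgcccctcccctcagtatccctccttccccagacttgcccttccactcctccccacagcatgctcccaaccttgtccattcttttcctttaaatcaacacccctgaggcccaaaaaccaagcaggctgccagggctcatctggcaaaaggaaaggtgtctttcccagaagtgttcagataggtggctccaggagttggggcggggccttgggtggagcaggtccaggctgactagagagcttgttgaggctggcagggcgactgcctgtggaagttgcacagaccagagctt
Aox1: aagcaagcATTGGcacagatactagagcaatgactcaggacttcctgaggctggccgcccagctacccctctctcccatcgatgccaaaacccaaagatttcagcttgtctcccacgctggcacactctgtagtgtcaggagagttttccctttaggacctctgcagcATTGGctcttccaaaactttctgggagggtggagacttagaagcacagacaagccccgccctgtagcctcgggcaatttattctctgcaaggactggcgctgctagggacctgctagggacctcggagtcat
These are chr3:146596899-146597198, chr7:140834888-140835187 and chr1:58029719-58030018. None held TATAAA or AGGTCA, which 13.6% and 16.3% of 32851 promoters of this length held. *Aox1* held the CCAAT letters at 2 places and the other 2 at none, against 37.4% of promoters with a match. Entries were found for 8 of the 9 genes, all but *Xdh*.

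In KO livers *Uox* also fell with diet, by 1.17 (SE 0.24, adjusted p = 0.00907 by edgeR). It measured 1911, 1974, 1780, 2334 and 2023 CPM on WD and 849, 887, 1095, 1224 and 415 CPM on CDA-HFD, without overlap. *Urah* was at -0.44 (SE 0.19, adjusted p = 0.139 by edgeR) and did not pass. Its CDA-HFD values of 75.2, 67.9, 80.2, 81.6 and 35.8 CPM overlapped the 74.6 to 107 CPM of the KO livers on WD.

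**Figure D2:**
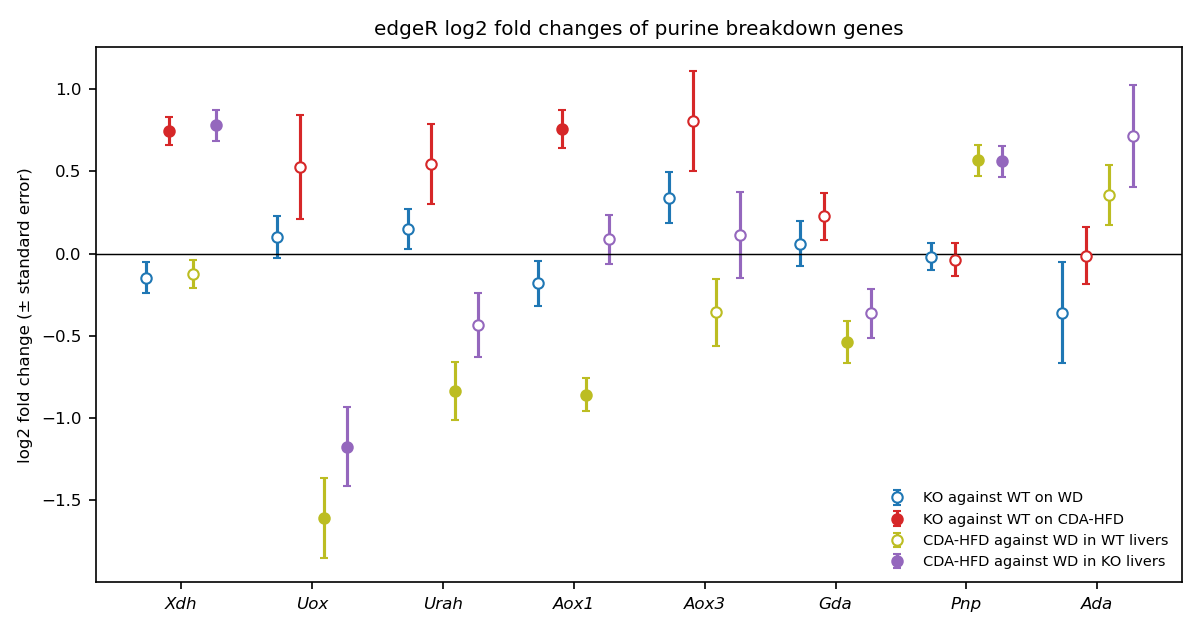
Log2 fold change with SE (y axis) of 8 genes in 4 comparisons from edgeR, with filled points for an adjusted p under 0.05. *Uox* lay at -1.61 and -1.17 in the 2 diet comparisons. *Xdh* was filled for KO against WT livers on CDA-HFD and for CDA-HFD against WD in KO livers. Both comparisons hold the livers *Xdh* was chosen on, so these fills are a description.

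*Aox1* (chromosome 1, 58029931 to 58106413) fell with diet in WT livers and lay at similar levels on both diets in KO livers. WT livers held 178, 186, 151, 182 and 218 CPM on WD and 101, 108, 101, 107 and 90.9 CPM on CDA-HFD, a fall by 0.86 (SE 0.10, adjusted p = 5.54e-05 by edgeR). KO livers held 184, 186, 180, 121 and 135 CPM on WD and 183, 201, 163, 181 and 131 CPM on CDA-HFD, a difference of 0.09 (SE 0.15, adjusted p = 0.729 by edgeR). The KO values overlapped widely. With library size as the scale these differences were -0.44, still called, and 0.31, not called. *Aox3*, its neighbour on the chromosome, was at -0.36 (SE 0.20, adjusted p = 0.160 by edgeR) in WT livers and 0.11 (SE 0.26) in KO livers. Without WT liver 4 on CDA-HFD it passed in WT livers, at -0.50 (adjusted p = 0.0418 by edgeR), whereas with library size as the scale it stood at 0.04. The other aldehyde oxidases, *Aox2* and *Aox4*, had at most 7 reads in any liver and were not tested.

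*Xdh* itself was at -0.12 (SE 0.087, adjusted p = 0.253 by edgeR) between the diets in WT livers. Its sign there rested on the scale: with library size alone it was 0.31 (adjusted p = 0.00839 by edgeR), below the 0.42 median of all genes. In KO livers it differed between the diets by 0.78 (SE 0.095), with a passed threshold and without overlap, and since the KO livers on CDA-HFD are those it was chosen on, that value is a description. With library size alone it was 1.03. The WT livers on CDA-HFD belong to the same chosen contrast, so the diet value of WT livers is not independent of that choice either.

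The genes that act before *Xdh* were *Pnp*, *Gda* and *Ada*. *Pnp* rose with CDA-HFD in both genotypes, by 0.57 (SE 0.093, adjusted p = 0.000420 by edgeR) in WT and by 0.56 (SE 0.097, adjusted p = 0.00384 by edgeR) in KO livers. It measured 22.3, 20.03, 22.5, 22.6 and 22.0 CPM in WT livers on WD and 40.7, 30.2, 31.2, 30.3 and 30.7 CPM on CDA-HFD. WT liver 1 on CDA-HFD stood apart from the other 4, and it also had the highest macrophage marker sum of all livers, 3647 CPM, a relation that was not tested. Without that liver the WT rise was 0.49. *Pnp* and its copy *Pnp2* lie in overlapping spans of chromosome 14, and 19.1% of the 75-base windows of *Pnp* transcripts also occur in other annotated genes, so its reads could be split or lost. *Pnp2* had at most 12 reads in a liver.

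*Gda* fell by 0.54 (SE 0.13, adjusted p = 0.00406 by edgeR) in WT livers, from 53.6 to 82.9 CPM on WD to 41.6 to 52.8 CPM on CDA-HFD. The fall was lost with library size as the scale, at -0.09 (adjusted p = 0.508 by edgeR). In KO livers it was at -0.36 (SE 0.15, adjusted p = 0.110 by edgeR), and it passed without KO liver 4 on CDA-HFD, at -0.49. *Ada* had 8 to 68 reads in a liver and was at 0.36 in WT and 0.72 in KO livers, neither past the threshold. It passed in WT livers with library size as the scale, at 0.78, and in KO livers with all 20 livers in a single fit, at 0.72.

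By edgeR, 5 of the 8 genes passed between the diets in WT livers, 1 higher and 4 lower. Of 16726 genes 51.1% passed, 25.9% higher and 25.2% lower, so the share of the set was close to that of all genes. With library size alone, 85.3% of the calls over all genes were higher ones against 50.7% with TMM, and 3 of the set passed as higher and 3 as lower. The diets did not overlap for 5 of the 8, against 37.1% of all genes. In KO livers 3 of 8 passed, *Xdh* and *Pnp* higher and *Uox* lower, where 17.0% of 16387 genes passed, 9.19% higher and 7.85% lower. With library size alone 85.9% of all calls there were higher ones, against 53.9%, and the same 3 genes of the set passed. The same 3 separated the diets, against 15.2% of genes. The diet comparisons share livers with the KO comparisons and are set side by side, with no overlap drawn from them.

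Ratios of raw reads within a library need no scaling between libraries. The ratio of *Xdh* to *Uox* reads sets a gene of urate formation against a gene of urate removal. It compares transcripts without scaling to exon length, and neither the enzymes nor urate were measured. The ratio was 0.189, 0.174, 0.161, 0.184 and 0.210 in WT livers on WD and 0.855, 0.338, 0.591, 0.377 and 0.721 on CDA-HFD. It was higher on CDA-HFD by 1.56 on the log2 scale (exact permutation p = 0.00794, two-sided, the smallest that 5 against 5 livers allow, adjusted p = 0.0238 over 12 tests). *Uox* fell by 1.61 there and *Xdh* was at -0.12, so the shift was mostly the fall of *Uox*, in livers with lower hepatocyte marker sums. The WT livers on CDA-HFD also take part in the contrast *Xdh* was chosen on, so this test is not independent of that choice. In KO livers the ratio went from 0.136 to 0.170 on WD to 0.445 to 1.28 on CDA-HFD, higher by 2.04, given as a description since *Xdh* was chosen on these livers. KO liver 5 gave the highest ratio, and the other 4 were at most 0.594, still above every liver on WD. The diets therefore separated completely in both genotypes.

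**Figure D3:**
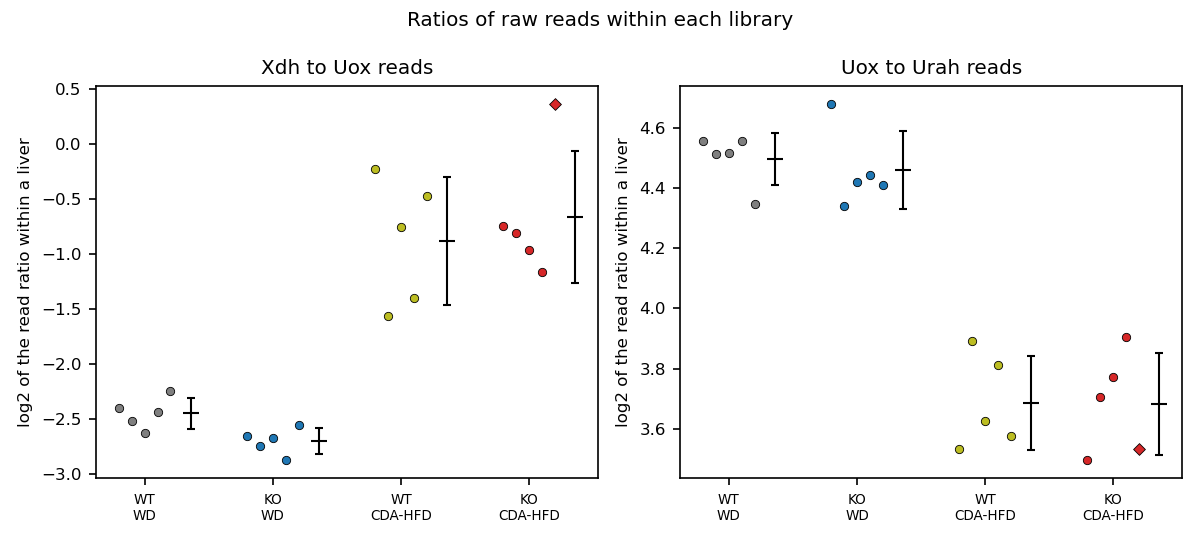
Log2 of the ratio of raw reads of *Xdh* to *Uox* (left) and *Uox* to *Urah* (right) within each liver (y axes), by group, with the mean and SD as the black bar. The ratios of the 10 livers on CDA-HFD lay above those on WD for *Xdh* to *Uox* and below them for *Uox* to *Urah*.

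On WD the *Xdh* to *Uox* ratio was lower in KO than in WT livers by 0.25 on the log2 scale (exact permutation p = 0.0159, adjusted p = 0.0317 over 12 tests), with overlap. The *Xdh* to *Aox3* ratio was lower by 0.46 (exact permutation p = 0.0159, adjusted p = 0.0317), ranging from 0.397 to 0.638 in KO and 0.599 to 0.722 in WT livers. *Uox* fell more than *Urah*: their read ratio was 20.4 to 23.5 on WD and 11.6 to 14.8 on CDA-HFD in WT livers, lower by 0.81 on the log2 scale in WT and by 0.78 in KO livers (exact permutation p = 0.00794 each, adjusted p = 0.0238). The ratios share genes and livers, and the CDA-HFD livers also take part in the contrast the set was chosen on. Exact permutation tests of CPM between the diets in WT livers gave p = 0.00794 for *Uox*, *Urah*, *Pnp*, *Gda* and *Aox1* (adjusted p = 0.0238 over 24 tests). *Uox* and *Pnp* gave the same in KO livers. The 24 tests include *Xdh* between the diets in KO livers, and the 12 ratio tests include its ratios there. *Xdh* was chosen on the KO livers on CDA-HFD, so the adjusted p-values are not free of that choice.

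Enzymes of the molybdenum cofactor, which *Xdh* and the aldehyde oxidases need, and the other molybdenum enzymes were taken from a list written for this comparison. Of 8 tested, 7 were lower on CDA-HFD in WT livers and 0 were higher, where 25.2% of all genes were lower and 25.9% higher. The hepatocyte marker fall given above was measured in the same livers. *Suox*, sulfite oxidase, fell by 1.66 (SE 0.15, adjusted p = 1.63e-05 by edgeR), from 135 to 43.1 CPM on average, and *Mtarc1*, a mitochondrial molybdenum enzyme, by 1.25 (SE 0.17, adjusted p = 0.000136 by edgeR). *Mocos*, which activates *Xdh* by adding sulfur to its cofactor, fell by 0.48 (SE 0.082, adjusted p = 0.000556 by edgeR), and *Mocs1*, the first step of cofactor synthesis, by 0.74 (SE 0.15, adjusted p = 0.00181 by edgeR). With library size as the scale the list had 3 lower calls, *Suox*, *Mtarc1* and *Mocs1*, and *Mocos* stood at -0.05. On that scale 1570 of 16726 genes were lower. The median of the list was -0.51 against -0.00 over all genes with TMM, and -0.08 against 0.42 with library size. In KO livers 2 were lower, *Suox* by 0.69 and *Mtarc1* by 0.50, where 7.85% of all genes were lower. Library size as the scale left *Suox* lower, put *Mtarc1* at -0.27, not called, and called *Mocs1* higher, at 0.41. On WD 0 of the 8 passed between KO and WT livers by edgeR or DESeq2, with 0 at an unadjusted p under 0.05, and on CDA-HFD 7 were higher in KO livers, with *Suox* at 1.09 and *Mocs1* at 0.94, where 8.19% of all genes were higher. Library size alone gave 4 higher, where 517 of 17204 genes were higher. Without WT liver 1 on CDA-HFD there were 5, a setting in which calls over all genes were not counted. Hepatocyte marker sums also differed in this KO contrast. No WT liver on CDA-HFD exceeded 88577 CPM, while the lowest of KO livers 1 to 4 stood at 89436. For macrophage markers KO livers 1 to 4 stayed at or below 830 CPM, and the WT group began at 1758. KO liver 5 lay inside the WT span for both, at 46709 and 2057. The part of this in the KO values of this list and the lists below was not tested.

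Urate transport and the remaining urate enzyme were followed with 10 tested genes. In WT livers 6 were lower on CDA-HFD and 1 higher, against 25.2% and 25.9% of all genes, in the livers with the lower hepatocyte marker sums. The urate transporters *Slc2a9* and *Abcg2* fell by 1.10 (SE 0.15, adjusted p = 0.000158 by edgeR) and 0.97 (SE 0.15, adjusted p = 0.000287 by edgeR), *Slc17a4* fell by 0.78 and the scaffold gene *Pdzk1* by 0.46. Library size as the scale left 3 lower, *Slc2a9*, *Abcg2* and *Slc17a4*, and 1 higher, *Abcc4*, where 1570 of 16726 genes were lower and 9120 higher. Without WT liver 1 there were 4 lower and 0 higher, and calls over all genes were not counted for that setting. In KO livers *Slc2a9*, *Abcg2* and *Slc17a4* fell by 0.73, 0.61 and 0.50, where 7.85% of all genes were lower. With library size as the scale *Slc17a4* was at -0.27, not called, and *Urad*, the urate pathway's decarboxylase, was called higher, at 0.69. Between KO and WT livers on WD 0 of the list passed by edgeR or DESeq2, with 1 at an unadjusted p under 0.05. On CDA-HFD 0 of 11 passed by edgeR, with 6 at an unadjusted p under 0.05 and 2 called by DESeq2, *Slc17a3* and *Slc22a7*. Without KO liver 5, edgeR called 6 higher and 1 lower there. Calls over all genes were not counted without that liver.

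**Figure D4:**
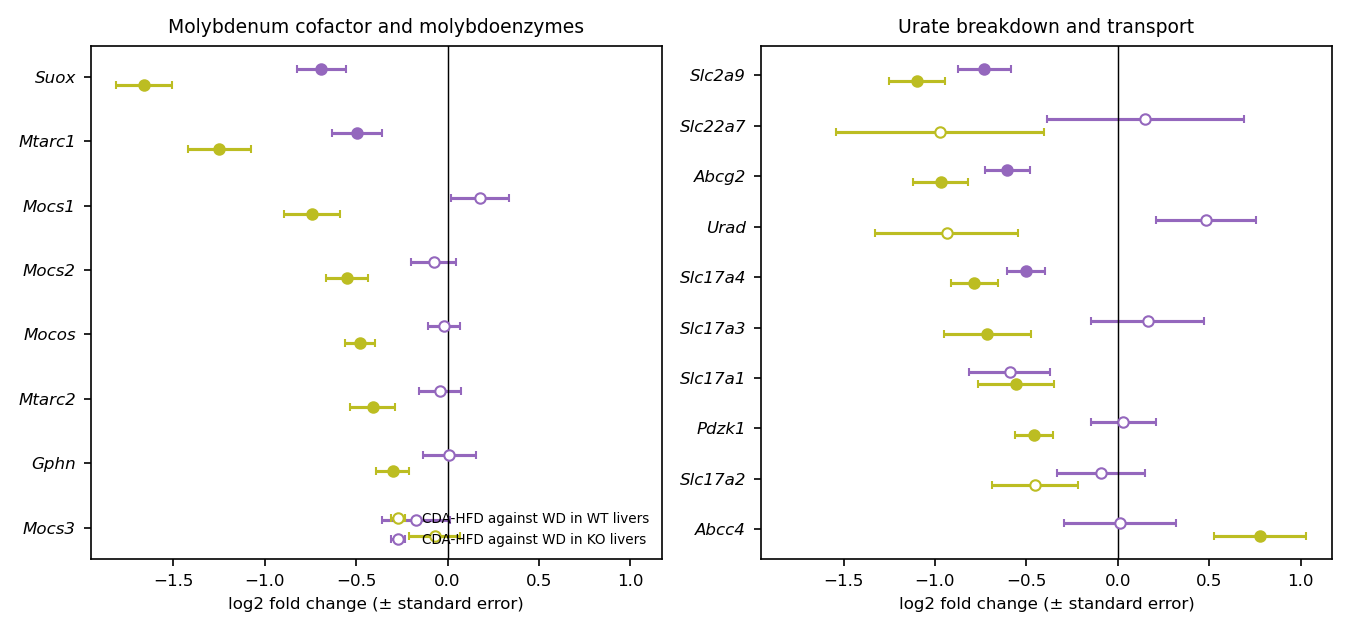
Log2 fold change with SE (x axis) on CDA-HFD against WD of genes of the molybdenum cofactor and molybdenum enzymes (left) and of urate breakdown and transport (right), in WT and KO livers, with filled points for an adjusted p under 0.05. *Suox* lay at -1.66 in WT and -0.69 in KO livers, and *Slc2a9* at -1.10 and -0.73.

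Salvage, which returns bases and nucleosides to nucleotides, divided. In WT livers *Adk*, adenosine kinase, fell by 1.14 (SE 0.14, adjusted p = 6.33e-05 by edgeR) and *Hprt*, which recovers hypoxanthine and guanine, by 0.53 (SE 0.069, adjusted p = 9.69e-05 by edgeR). *Aprt*, which recovers adenine, rose by 0.89 and *Dck*, deoxycytidine kinase, by 0.52. The list thus had 2 higher and 2 lower of 9, where 25.9% of all genes were higher and 25.2% lower. With library size alone it had 7 higher and 1 lower, *Hprt* then standing at -0.11, where 9120 of 16726 genes were higher and 1570 lower. In KO livers the same 4 passed in the same directions, where 9.19% of all genes were higher and 7.85% lower. *Adk* was at -0.66, *Hprt* at -0.52, *Aprt* at 0.72 and *Dck* at 0.65. *Hprt* lost its call with library size as the scale, at -0.28. Of the 13 genes of purine synthesis, *Adssl1*, an adenylosuccinate synthase, fell by 0.74 and *Adsl* rose by 0.22 in WT livers. With library size alone the list had 10 higher and 0 lower calls, *Adssl1* standing at -0.31, not called. The shares of all genes are those given for salvage. Without WT liver 1 on CDA-HFD the call of *Adsl* was lost. *Adssl1* also fell by 0.84 in KO livers.

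Among 14 nucleotidases and deaminases, 5 were higher and 4 lower on CDA-HFD in WT livers, where 51.1% of all genes passed, 25.9% higher and 25.2% lower. *Nt5c3b*, a nucleotidase, rose by 1.43, *Ampd3*, an AMP deaminase, by 0.92 and *Lacc1*, an enzyme of macrophages that acts on purine nucleosides, by 0.77, while *Entpd5* fell by 0.67. Macrophage marker sums were 407 to 1296 CPM in WT livers on WD and 1758 to 3647 on CDA-HFD, and the share of *Lacc1* reads from macrophages was not tested. The 10 macrophage markers were all read in every liver. Of 4 nucleoside transporters tested in WT livers, *Slc29a3* and *Slc28a2* rose by 1.40 and 1.28, and *Slc29a1* fell by 0.68, a fall lost with library size as the scale. With library size the nucleotidase list had 8 higher and 2 lower, where 9120 of 16726 genes were higher and 1570 lower. In KO livers 3 nucleotidases and deaminases were higher and 1 lower on CDA-HFD, and 0 of the 4 transporters passed by edgeR. Of all genes 9.19% were higher and 7.85% lower. With library size as the scale the nucleotidase list had 4 higher and 1 lower, and 2 transporters were higher. Over all 16387 genes 3371 were then higher and 553 lower.

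Between KO and WT livers on WD, 0 genes of the salvage, synthesis, nucleotidase and transporter lists passed by edgeR or DESeq2, with 2 at an unadjusted p under 0.05, *Nt5c2* and *Dck*. On CDA-HFD edgeR called *Nt5m* higher and *Nt5c3b* and *Lacc1* lower among the nucleotidases, at 0.45, -0.60 and -0.51. Of all genes 8.19% were called higher there and 7.29% lower. *Dck* was at -0.51 among the salvage genes and *Slc29a1* at 0.91 among the transporters, each called. Of the 13 synthesis genes 0 passed by edgeR, with 3 at an unadjusted p under 0.05 and 1, *Impdh1*, called by DESeq2. Without KO liver 5 the edgeR calls were 3 higher and 3 lower for nucleotidases and 2 higher and 1 lower for synthesis. Calls over all genes were again not counted for that setting. With library size as the scale *Nt5m*, at 0.25, and *Nt5c3b*, at -0.77, lost their calls. Without WT liver 1 on CDA-HFD *Lacc1* was the remaining nucleotidase call, and *Dck* lost its call.

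The genes whose pattern over the 20 livers lay nearest to that of *Xdh* were *Rgp1*, *Plekha7*, *Ogfr*, *Gba2* and *Tut7*. Nearness was the root mean square difference of mean-centred log2 CPM among 11031 genes, and it was 0.18 to 0.21 for these 5 against a median of 0.43. The SD of *Xdh* itself was 0.33. *Rgp1* averaged 54.4, 51.7 and 52.5 CPM in WT and KO livers on WD and WT livers on CDA-HFD, and 73.3 CPM in KO livers on CDA-HFD.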

How the data were processed

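RNA from 20 livers was sequenced, 5 for each vector and diet. The authors aligned reads to mm10, per the submitters' processing notes, and deposited raw counts of reads per gene, whole numbers with no normalization. The aligner and the use of strand in counting are not given in the sources used here. The 5 rows that name no gene, 50.3% to 57.0% of reads, were left out. Ambiguous or multiply placed reads are therefore missing from the counts.

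Groups came from the labels. The tests ran in R (4.3.3) and used edgeR (4.0.16, filterByExpr, TMM, quasi-likelihood F test, Benjamini-Hochberg over all genes), fitted separately for each comparison of 10 livers, with all 20 for the interaction. DESeq2 1.42.0 was an alternative. CPM were scaled over all 20 libraries. Single genes and read ratios were tested by exact two-sided permutation. The edgeR code was tested on simulated data. Replicate numbers were not treated as pairs, since residuals of same-numbered livers correlated between -0.37 and 0.35. No libraries were copies.

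Exon lengths came from GENCODE on GRCm38, the same build as mm10. Promoters came from RefSeq (GRCm38.p6). Python (3.11.15) and matplotlib (3.10.9) drew the figures. All 9 genes, *Pnp2*, *Aox2*, *Aox4*, *Cideb*, the 5 genes nearest to *Xdh* and, of each other list, up to 4 genes with the smallest adjusted p in a comparison were named, and genes beyond these were named after their values were seen. The members and lists were chosen with earlier results of these data known. Left-out libraries and library-size scaling for the lists were added after seeing the data. The written plan of tests named permutation of single genes and did not name the read ratios. P-values weigh group differences against the spread between these samples, which may be partly technical.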

Additional observations from a re-analysis of the deposited data

Results flagged for a closer look

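*Pnp* was flagged in WT livers on WD because liver 2, at 20.03 CPM, lay below the other 4, at 22.0 to 22.6 CPM, by 0.748 of the group's range. It was flagged in WT livers on CDA-HFD because liver 1, at 40.7 CPM, lay above the other 4, at 30.2 to 31.2 CPM, by 0.907 of the range. Of 32 groups 2 exceeded Dixon's limit for 5 samples, where chance gives about 5%. The KO effect differed between the diets by 0.90 on the log2 scale for *Xdh* and by 0.94 for *Aox1*, from an interaction term that includes the contrast the genes were chosen on.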

How the results depend on the processing

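Between KO and WT livers on CDA-HFD 2 genes passed, 4 with all 20 livers in a single fit and 2 to 5 when single livers were left out. For the interaction 2 passed, 1 with library size as the scale and 1 to 2 when single livers were left out. With library size *Xdh* and *Aox3* between the diets in WT livers reversed from -0.12 and -0.36 to 0.31 and 0.043. Leaving out single livers gave -0.021 to 0.13 for *Gda* and -0.055 to 0.022 for *Pnp* in KO against WT livers on WD, and -0.00067 to 0.17 for *Aox1* and -0.028 to 0.29 for *Aox3* between the diets in KO livers. The cause was not tested. The replicate block gave 0, 3, 5, 3 and 2 genes in the 4 comparisons and the interaction, adding *Aox3* on CDA-HFD, and the numbers do not pair the livers. DESeq2 likewise added *Aox3* there. Counting noise limits *Ada*, with 8 reads in its lowest liver, and *Allc*. Among values of single genes under alternatives, 731 kept their direction and side of the threshold or moved by less than 1 SD. Of the others 9 reversed, 4 moved, 4 newly passed and 1 no longer passed. Passing was compared in the tested comparisons only. Values of the KO contrast on CDA-HFD and of the interaction were sorted by direction and size. The calls gained or lost there, given above, are therefore not in these counts. Of the counts per comparison 87 stayed within 1.5 times and 8 did not, 6 being lower and 2 higher.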
